A study of Rattus norvegicus with 2 samples.

Results

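The cells described here were mesenchymal cells of the neonatal rat cochlear duct that carried Aldh1a2 and Scara3 with little Ccn3. They were selected on the counts themselves. A barcode was taken when it had more than 500 and fewer than 5000 genes, under 25% of its UMIs (unique molecular identifiers, each standing for 1 captured transcript) on mitochondrial genes, no UMI of the division genes Top2a and Ube2c, at least 3 UMIs of Aldh1a2, at least 1 UMI of Scara3, and Ccn3 below 0.4% of its UMIs. This gave 488 of 11183 non-dividing cells in the P1 library and 354 of 10918 in the P7 library, 842 of 22101 in all, out of 28569 barcodes deposited. Both libraries came from Sprague-Dawley rats, 1 at postnatal day 1 and 1 at postnatal day 7, and each held tissue pooled over many animals from which the stria, the spiral ligament and the ganglion had been dissected off. No allele, agent or treatment separated the groups. Each age had 1 library, so age and library cannot be told apart, and no test between ages was possible. Values are therefore given per library, with exact 95% intervals (Poisson for levels, Clopper-Pearson for shares) that cover counting error only.

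Aldh1a2 encodes the retinaldehyde dehydrogenase that makes retinoic acid, a small diffusible ligand of nuclear receptors, and in the inner ear retinoic acid is made largely by mesenchyme around the epithelial duct. Scara3 is a scavenger receptor-like protein linked to protection from oxidative damage. Ccn3 is a secreted matricellular protein of the CCN family, and the cells with the same pair of genes and more Ccn3 served as the closest comparison by the rule.

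The 2 libraries held 114285848 and 101264868 UMIs over 14068 and 14501 barcodes. The selected cells had a median of 7853 UMIs and 2441.5 genes at P1 and 8854 UMIs and 2802.5 genes at P7, against 6292 and 6569 UMIs in all other non-dividing cells, and a rule that asks for 3 UMIs of a gene favours deep cells. Mitochondrial genes took a median of 6.11% of UMIs at P1 and 7.19% at P7. Of the barcode sequences, 60 occurred in both libraries, and 0 of these were selected in both. GEO labels both libraries as greater epithelial ridge cells, an epithelial type of the developing organ of Corti. The paper considered its cluster with high Scara3 and Aldh1a2 a subtype of these ridge cells. Its in situ hybridization at P1 placed Otor in the ridge and Scara3 at the lateral wall of the ridge region. The name mesenchymal used here differs from that assignment and rests on RNA levels alone, without positions in the tissue. The defining epithelial genes were close to absent from the selected cells. Epcam, an epithelial adhesion protein, stood at 4.77 CPM (UMIs scaled to a total of 1000000) at P1 and 4.33 CPM at P7, Tecta of the tectorial membrane at 4.33 and 4.90 CPM, and Otog, which encodes otogelin, at 0.650 and 0.865 CPM.

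The share of selected cells was 4.36% (95% interval 3.99 to 4.76) at P1 and 3.24% (2.92 to 3.59) at P7. The cells with the same genes and Ccn3 at or above the limit made up 3.25% and 1.27%. These shares rest on the genes of the rule, and fewer cells of a type cannot be told apart here from a different yield at dissociation.

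The values of the genes that chose the cells are a description only. A selected cell held a median of 6 Aldh1a2 UMIs at P1 and 8 at P7, with up to 35 and 31. Scara3 had medians of 2 and 3 UMIs. Ccn3 had medians of 0.0680% and 0.106% of the UMIs, and 49 and 12 cells held none. At the edge of the rule, 83 P1 cells had exactly 3 Aldh1a2 UMIs and a Clu level of 1069 CPM, and the 120 P1 cells with 2 UMIs had 1118 CPM. At P7 the 41 cells with 3 UMIs had 2594 CPM of Clu and the 60 cells with 2 UMIs had 2076 CPM. The 161 P1 cells that lacked only Scara3 had 174 CPM of Calb2 and the 169 with a single Scara3 UMI had 163 CPM. At P7 the 34 cells without Scara3 had 241 CPM of Calb2 and the 65 with a single UMI 362 CPM. Cells just outside the rule thus also carried these companion genes above the level of the rest, and since they count among the other cells, the contrasts with the other cells are diluted by them.

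The genes with the largest ratios to the rest were Calb2, Kcnk2 and Clec1a. Of 5083 genes that reached 20 CPM in the selected or the other cells in each library, 98 (1.93%) were at least 2-fold above the other non-dividing cells in both libraries and 213 (4.19%) at least 2-fold below. These and all later log2 ratios between levels had 5 CPM added to each level unless stated otherwise. Because a population selected on expression differs from the rest by its making, these counts describe the cells and test nothing. The median log2 ratio over all genes was 0.00 at P1 and 0.02 at P7.

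Calb2, which encodes the calcium buffer calretinin, ranked first by the smaller of its ratios in the 2 libraries. Its level was 200 CPM (187 to 213) at P1 and 360 CPM (340 to 381) at P7, against 19.5 and 14.5 CPM in the other cells. In the Otor-high fibrocytes without Aldh1a2 it was 6.58 and 3.65 CPM, and in the Gpc3-Dcn fibroblasts without Aldh1a2 29.4 and 12.0 CPM. All of these values lay below the counting interval of the selected cells in the same library.

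Kcnk2, a mechanosensitive potassium leak channel, stood at 254 CPM (240 to 269) at P1 and 394 CPM (373 to 416) at P7 against 29.9 and 25.9 CPM in the other cells. Cavin2, a coat protein of caveolae, stood at 476 CPM (456 to 496) and 436 CPM (414 to 458) against 77.0 and 31.9 CPM. Clec1a, a C-type lectin, stood at 101 and 106 CPM against 10.0 and 5.22 CPM. For these genes the distance from the other cells was wider at P7, and for Cavin2 and Clec1a this came with a lower level in the other cells while the selected cells stayed near their P1 level.

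Clu, the secreted chaperone and complement inhibitor clusterin, was at 842 CPM (815 to 869) at P1 and 2247 CPM (2197 to 2298) at P7, against 160 and 342 CPM in the other cells. Itga8, the integrin subunit that binds nephronectin, was at 248 CPM (234 to 263) and 426 CPM (405 to 448) against 53.2 and 37.9 CPM. Cldn11, a claudin that forms tight junction strands in myelin and in barrier layers, was at 271 CPM (257 to 287) and 571 CPM (546 to 596) against 56.5 and 48.0 CPM. Slc1a3, the glutamate and aspartate transporter, was at 990 CPM (962 to 1019) and 741 CPM (712 to 770) against 259 and 117 CPM. All 4 were more than 2-fold above the other cells in both libraries.

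The remaining leading genes included further secreted and surface proteins. The log2 ratio to the other cells at P1 and P7 was 2.65 and 3.27 for Abi3bp and 2.32 and 2.86 for Ramp1, which encodes the subunit that turns the calcitonin receptor-like receptor into a CGRP receptor. Enpep, the aminopeptidase that trims angiotensin, was at 136 and 295 CPM against 27.8 and 39.0 CPM. The ratio was 2.28 and 2.14 for the ligand gene Wnt6, 1.91 and 1.89 for Gsn, which encodes the actin-severing protein gelsolin, and 2.07 and 1.82 for Lbp, a binding protein for bacterial lipopolysaccharide. Among the other leading genes, Fhl1 gave 2.23 and 2.66, Fam174b 2.61 and 2.66, Cit 2.08 and 2.69, and the sarcoplasmic calcium binder Casq1 1.85 and 2.32. One leading feature, AABR07008439, has no gene name in the files and was at 174 and 407 CPM.

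**Figure D1:**
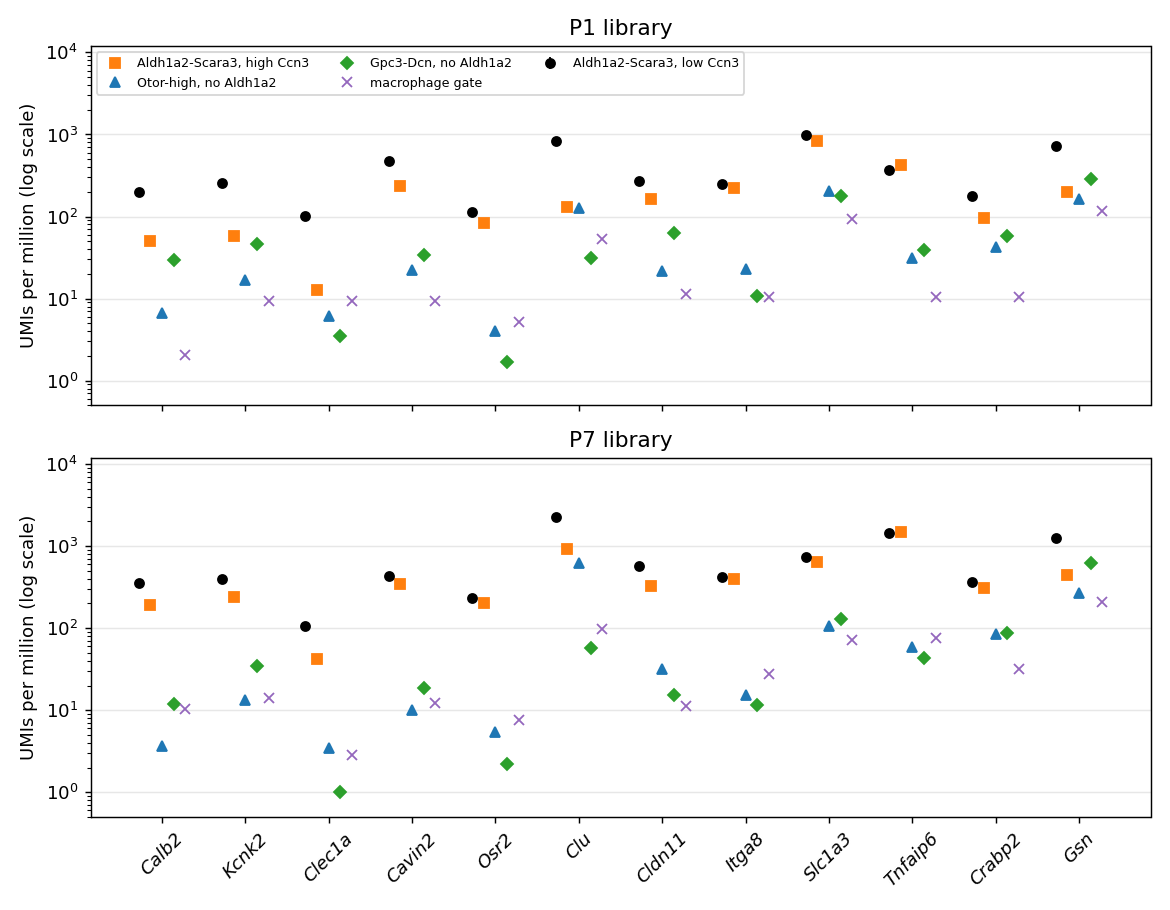
Levels (CPM, log scale) of 12 genes at P1 and at P7 in the selected cells (black, with 95% counting intervals that are mostly smaller than the symbol), in Aldh1a2-Scara3 cells with high Ccn3 (orange), in Otor-high cells (blue) and Gpc3-Dcn cells (green) without Aldh1a2, and in macrophages (crosses). The black symbols lie above the blue, green and crossed ones for every gene shown, while the orange symbols come close to them for Itga8, Slc1a3 and Tnfaip6.

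Genes at the other end belonged mostly to other classes of the duct. Oc90, an otoconial protein of non-sensory epithelium, was at 9.97 and 14.4 CPM in the selected cells against 185 and 448 CPM in the other cells. Col9a1, a cartilage-type collagen chain of the fibrocytes, was at 319 and 730 CPM against 2033 and 3992 CPM. Sncg, Lyz2, Cd9, Sox2, Frzb, Cytl1 and Col9a3 were also among the 10 most negative ratios, which ran from -2.34 to -4.54.

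Not every selected cell held a UMI of these genes. After each cell was thinned to 2000 UMIs, 28.9% of the P1 cells and 44.9% of the P7 cells held a Calb2 UMI, against 61.5% and 79.7% before thinning. Of other cells thinned alike, 2.81% and 1.98% held one. Free RNA gives UMIs to cells that do not make a gene. Its size was gauged on macrophages (at least 2 UMIs of C1qa and 1 of Csf1r, 114 and 136 cells with median depths of 7736 and 6702 UMIs). Of these, 1.75% and 5.88% held a Calb2 UMI before thinning. Scrublet, described below, called 17.5% and 9.56% of them doublets (barcodes with RNA of a cell pair), against 4.18% and 5.06% of other non-dividing cells. Their UMIs of other types can thus come from doublets as well as free RNA. Clu was found after thinning in 57.2% and 89.8% of selected cells and in 4.42% and 9.09% of macrophages. Cavin2 was found in 55.9% and 53.1% against 2.65% and 2.27%. The haemoglobin gene Hba-a2 was found in 10.5% and 21.8% of selected cells against 10.6% and 29.5% of macrophages, which is at the background level in both libraries.

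The spread over single cells was wide. Clu had a median of 482 CPM per cell at P1, with the 10th and 90th percentiles at 0 and 2110 CPM, and a median of 1924 CPM at P7, with 572 and 4546 CPM. Tnfaip6, a hyaluronan-binding protein induced in inflammation, had medians of 214 and 1329 CPM. Osr1 was at 0 in the median P1 cell and at 83.4 CPM in the median P7 cell. The P1 and P7 ranges overlapped for all 12 genes plotted.

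**Figure D2:**
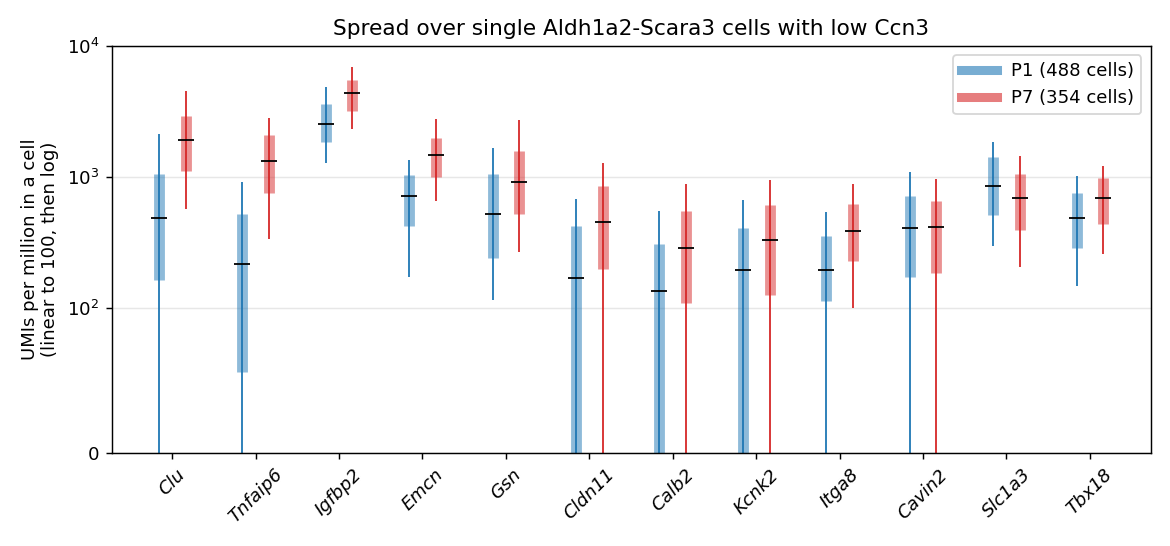
Levels (CPM) in single selected cells for 12 genes at P1 (blue, 488 cells) and P7 (red, 354 cells), on an axis that is linear to 100 and logarithmic above. The black dash is the median, the thick bar the middle quartiles and the thin line the 10th to 90th percentiles. The Clu, Tnfaip6 and Emcn medians are higher at P7, Cavin2 is nearly level and Slc1a3 is lower.

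Between P1 and P7 the levels of Tnfrsf11b, Gpr182, Osr1, Tnfaip6, Cldn11 and Crabp2 were at least 2-fold higher in these cells, and those of Hist1h1e, Egr1 and Fos at least 2-fold lower. Of 5774 genes with at least 20 CPM at either age, 364 (6.30%) were at least 2-fold higher at P7 and 158 (2.74%) at least 2-fold lower. With levels scaled without mitochondrial and ribosomal protein genes these counts were 375 and 275. The median log2 ratio of P7 to P1 over all of them was 0.16, and 0.07 with that scaling. In the other cells the median over the same genes was 0.11.

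Several genes were higher at P7 in the selected cells and moved less in the other cells as a pool. Tnfrsf11b, which encodes osteoprotegerin, a decoy receptor that restrains osteoclast formation, was at 30.1 CPM (25.3 to 35.6) at P1 and 297 CPM (279 to 316) at P7, and in the other cells at 6.41 and 36.2 CPM. Gpr182, an atypical chemokine receptor, was at 9.53 CPM (6.93 to 12.8) and 98.1 CPM (87.9 to 109), against 2.26 and 6.44 CPM. Tnfaip6 was at 366 CPM (349 to 384) and 1460 CPM (1420 to 1501), against 93.3 and 107 CPM. The log2 ratio of P7 to P1 was 2.83 for Gpr182 and 1.98 for Tnfaip6 in the selected cells, and 0.66 and 0.19 in the other cells. That pool includes the cells with high Ccn3, the closest by the rule. After thinning, 52.7% of those at P1 and 79.7% at P7 held a Tnfaip6 UMI, against 41.8% and 84.7% of the selected cells. Whether the higher levels at P7 were particular to the selected cells was not tested.

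A few transcription factors were past 2-fold higher at P7, and most listed ones were not. Osr1, a zinc finger factor of embryonic mesoderm, was at 22.1 CPM (18.0 to 26.8) at P1 and 119 CPM (107 to 131) at P7. Its relative Osr2, just short of 2-fold with a log2 ratio of 0.97, was at 115 CPM (105 to 125) and 231 CPM (215 to 247), while the other cells were at 18.0 and 13.3 CPM. Mab21l1 was at 25.8 and 97.2 CPM against 14.6 and 12.4 CPM, and Runx1t1 at 110 and 228 CPM against 36.6 and 32.1 CPM. Of 25 mesenchyme transcription factors that reached 20 CPM, 3 (Osr1, Runx1t1 and Sox9) were at least 2-fold higher at P7 and 0 lower. Over all genes 6.30% were higher and 2.74% lower. The median log2 ratio of these factors was 0.11 against -0.17 in the other cells. Tbx18 and Pou3f4, factors of otic mesenchyme, were at 541 and 709 CPM and at 555 and 411 CPM. Of the cells with high Ccn3, 0.824% at P1 and 7.97% at P7 held an Osr1 UMI after thinning. For Osr2 the shares were 12.9% and 29.0%.

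The upstream windows of Tnfaip6 and Osr1 are shown because both genes had large ratios of P7 to P1 and both windows hold the letters AGGTCA, the half-site read by nuclear receptors including those for retinoic acid. They are the 250 bases before the RefSeq start of each gene, from the GRCr8 build (the counts were made on rn6 and carry no coordinates), chr3:56911148-56911397 and chr6:38097401-38097650, both on the plus strand, written 5′ to 3′ with the match in capitals, which in both reads TGACCT because it lies on the other strand.
Tnfaip6: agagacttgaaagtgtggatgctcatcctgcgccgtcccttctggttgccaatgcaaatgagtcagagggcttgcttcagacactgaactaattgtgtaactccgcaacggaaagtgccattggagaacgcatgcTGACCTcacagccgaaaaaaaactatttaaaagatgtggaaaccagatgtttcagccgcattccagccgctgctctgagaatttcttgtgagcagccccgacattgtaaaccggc
Osr1: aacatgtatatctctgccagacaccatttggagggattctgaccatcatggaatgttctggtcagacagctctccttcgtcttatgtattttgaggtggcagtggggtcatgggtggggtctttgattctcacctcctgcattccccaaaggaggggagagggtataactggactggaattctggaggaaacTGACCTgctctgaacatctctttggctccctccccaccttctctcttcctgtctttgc
The match begins 115 bases before the start in Tnfaip6 and 58 bases before it in Osr1. On either strand, AGGTCA occurs in the window of 14.8% of 27457 genes with a promoter in the table. Of the 25 genes with the largest ratios to the other cells, 18 had a window and 1 held it, Tnfaip6. TGANTCA, the letters of an AP-1 site, occurs in 7.0% of all genes and in 1 of the 18, and CTTTGA, a TCF/LEF core, in 14.9% and in 1 of the 18. CACCTG, an E-box, occurs in 4673 of the 27457 genes and in 3 of the 18, Ramp1, Gsn and Casq1. A match of letters is a description and says nothing about binding.

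Cldn11, Crabp2 and Pdpn were also past 2-fold higher. Cldn11 gave a log2 ratio of 1.06 in the selected cells against -0.21 in the other cells, and Crabp2, the carrier that brings retinoic acid to its receptors, 1.02 against 0.60, from 178 CPM (166 to 190) to 366 CPM (346 to 386). Pdpn gave 1.07 against 0.97. Of 27 barrier and mesothelial genes listed, Crabp2 among them, only 5 reached 20 CPM. These 3 were past 2-fold higher and 0 lower, with a median of 1.02, where 6.30% of all genes were higher. The mesothelial genes Msln, Upk3b and Lrrn4 did not reach that minimum.

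For 73 of the 5774 genes (1.26%) the ratio of P7 to P1 in the selected cells was more than 2-fold above that in the other cells, and for 17 (0.294%) more than 2-fold below it. Atp1b1, the sodium pump subunit, was at 22.7 CPM (18.6 to 27.5) and 82.8 CPM (73.5 to 93.0) in the selected cells and at 143 and 87.8 CPM in the other cells. Flrt3, an adhesion protein of axon guidance, was at 28.2 and 114 CPM against 23.9 and 23.6 CPM. In the opposite sense, Col15a1 of the basement membrane zone was at 41.6 and 78.5 CPM against 17.9 and 92.4 CPM, and Ramp3 at 87.1 and 146 CPM against 121 and 439 CPM. The makeup of the other cells differed between the libraries, and the Gpc3-Dcn cells, for example, were 9.21% of non-dividing cells at P1 and 20.7% at P7. The part of that makeup in these differences was not tested.

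Among genes lower at P7, the leading ones were also lower in the rest of the tissue. Hist1h1e, a linker histone, was at 232 and 41.0 CPM, with a log2 ratio of -2.37 in the selected cells and -2.51 in the other cells. The immediate early genes Egr1 and Fos gave -1.96 and -1.80 against -2.27 and -1.72. Of 14 immediate early genes compared, 5 were past 2-fold lower and 1 higher, with a median of -0.36 against -0.85 in the other cells. Over all genes 2.74% were lower and 6.30% higher, and the same shares stand beside the ribosomal protein and Wnt counts below. Jun was at 356 CPM at P1 and 455 CPM at P7, while in the other cells it was at 729 and 378 CPM. Of 77 ribosomal protein genes 7 were past 2-fold lower and 0 higher. The summed level of all 98 listed ribosomal protein genes was 242616 CPM at P1 and 181540 CPM at P7 in the selected cells, and 216530 and 160402 CPM in the others. Of 15 Wnt pathway genes compared, 4 were past 2-fold higher and 0 lower, among them Bambi, a decoy receptor of BMP signalling, at 17.8 and 106 CPM, and 41.7 and 156 CPM in the other cells. The Y-linked gene Eif2s3y was at 60.2 CPM at P1 and 11.8 CPM at P7 in the selected cells and at 68.4 and 9.27 CPM in the others. The labels do not give the sex of the pooled animals, and its part in the differences between the libraries was not tested.

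**Figure D3:**
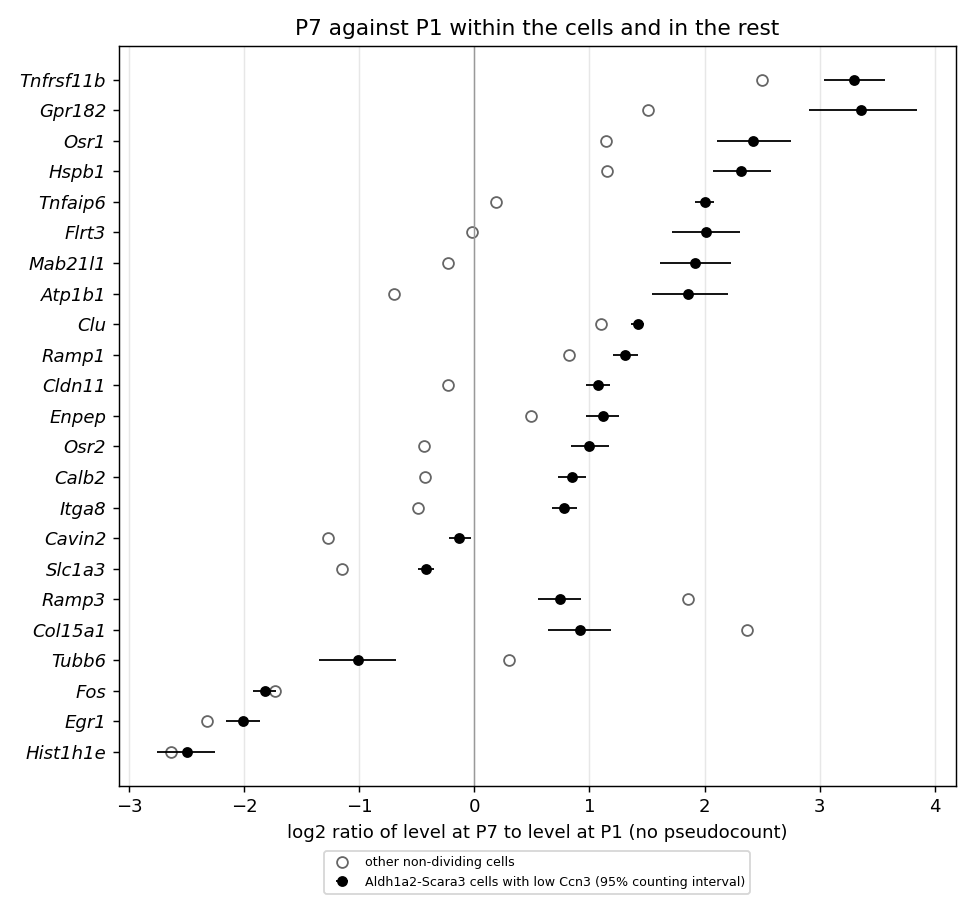
log2 ratio of the level at P7 to that at P1, without a pseudocount, for 23 genes in the selected cells (black, 95% counting interval) and in all other non-dividing cells (open circles). From Tnfrsf11b to Slc1a3 the black points lie to the right of the open circles, for Ramp3, Col15a1 and Tubb6 to the left, and for Fos and Hist1h1e they nearly coincide.

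The haemoglobin genes Hba-a2 and Hbb were among the 4 highest ratios of P7 to P1, and most of their UMIs came from a single cell. Hba-a2, the sum of 2 gene identifiers, was at 48.5 CPM at P1 and 797 CPM at P7, but a single P7 cell held 78.4% of its UMIs and the level without that cell was 173 CPM, against 1197 CPM in the other cells.

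In the retinoic acid list of 20 genes, Aldh1a1, Aldh1a3, Rdh10, Cyp26a1 and Cyp26b1 stayed under the 20 CPM minimum at both ages. Beside Aldh1a2, which chose the cells and stood at 799 and 929 CPM, Aldh1a1 was at 4.33 and 12.1 CPM and Aldh1a3 at 2.17 and 1.73 CPM. Rdh10, which makes the retinaldehyde substrate, was at 13.4 CPM (10.3 to 17.2) and 7.21 CPM (4.67 to 10.6). The catabolic enzymes Cyp26a1 and Cyp26b1 had 1 and 9 UMIs over all P1 cells and 6 and 1 over all P7 cells, so no difference between ages was detectable for them at this depth. The receptors Rara and Rarb were at 96.4 and 79.9 CPM and at 76.9 and 106 CPM. Of the 7 list genes compared between ages, 1 was past 2-fold higher (Crabp2) and 0 lower, and the median log2 ratio was 0.01. The shares over all genes were 6.30% higher and 2.74% lower. Of 9 list genes compared with the other cells, 1 was above in both libraries and 1 below, where 1.93% of all genes were above and 4.19% below.

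Among 24 genes for glutathione, xenobiotic and antioxidant handling compared with the other cells, 5 were past 2-fold above and 1 below in both libraries, with medians of 0.15 and 0.08, where over all genes 1.93% were above and 4.19% below. Cyp1b1, an oxidase of retinoids, steroids and xenobiotics, was at 536 CPM (515 to 557) and 594 CPM (569 to 620) against 210 and 154 CPM. Gsta6 and Gstm1, glutathione transferases, gave 1.57 and 1.79 and 1.09 and 1.43. Peroxiredoxin 2 (Prdx2) was level, at 1051 and 1059 CPM against 1081 and 1010 CPM.

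Of 7 caveola genes compared with the other cells only Cavin2 was past 2-fold above in both libraries, and 0 were below. Over all genes 1.93% were above and 4.19% below. Cav1, the main caveolin, was at 241 and 286 CPM in the selected cells against 168 and 66.8 CPM. Of 9 genes of the IGF axis, 7 were past 2-fold below the other cells and 0 above, with medians of -1.32 and -1.30, and the shares over all genes to set beside this and the next counts are again 4.19% below and 1.93% above. They included Igfbp3 at 21.0 and 46.2 CPM against 149 and 203 CPM, and Igfbp5 at 462 and 580 CPM against 1080 and 1246 CPM. Igfbp2, in contrast, was at 2856 and 4592 CPM against 1331 and 2827 CPM. Of 22 interstitial matrix genes 7 were below and 0 above, among them Mgp at 234 and 161 CPM against 970 and 633 CPM. In the glutamate list 3 of 7 genes were above and 0 below, with Slc38a3 at 63.9 and 69.8 CPM against 22.2 and 18.4 CPM and Slc1a5 at 31.8 and 34.3 CPM against 8.89 and 7.34 CPM beside Slc1a3. Of 15 actin and contraction genes 4 were above and 3 below, with Vim, the mesenchymal intermediate filament, at 8815 and 9423 CPM against 4274 and 3948 CPM.

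The cells with the same genes and high Ccn3 numbered 364 at P1 and 139 at P7. Of 4885 genes compared, 45 (0.921%) were past 2-fold above them in both libraries and 29 (0.594%) past 2-fold below. The genes above included Wnt6, Fibin, Mfap5 and Dcn. Wnt6 was at 81.0 CPM (73.0 to 89.7) at P1 and 133 CPM (121 to 146) at P7, against 4.19 and 24.5 CPM with high Ccn3. Fibin was at 58.9 and 60.9 CPM against 3.45 and 3.95 CPM, and Mfap5, a microfibril protein, at 70.2 and 76.2 CPM against 2.22 and 7.89 CPM. Dcn, the small proteoglycan decorin, was at 373 and 680 CPM against 60.8 and 199 CPM.

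Gjb2 and Gjb6, the cochlear connexins that form gap junctions, were at 48.3 and 86.3 CPM and at 26.9 and 52.5 CPM, with log2 ratios of 2.94 and 1.71 and of 2.19 and 1.52. Of 4 gap junction genes compared these 2 were above and 1 below, Gja4, a connexin of vessel walls, at 1.52 and 8.37 CPM against 23.9 and 66.3 CPM. Over all genes 0.921% were above and 0.594% below, and the same shares stand beside the interstitial fibroblast count. Clu and Gsn were past 2-fold above in both libraries, with log2 ratios of 2.62 and 1.28 and of 1.85 and 1.46. Of 9 interstitial fibroblast genes 7 were above, with medians of 2.05 and 1.43. In the Gpc3-Dcn cells Dcn, one of the genes that chose them, was at 2524 and 5698 CPM, while Mfap5 was at 62.4 and 37.6 CPM there, below the selected cells at P7.

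The genes below the cells with high Ccn3 included regulators of the Wnt pathway, of which 6 of 15 listed genes compared were below and 1 above. Over all genes 0.594% were below and 0.921% above. Notum, a secreted enzyme that inactivates Wnt ligands, was at 15.4 and 21.6 CPM against 108 and 328 CPM. Nkd1, an intracellular feedback inhibitor, was at 28.6 and 27.1 CPM against 156 and 173 CPM. Nkd2 was at 82.3 and 143 CPM against 244 and 328 CPM, Bambi at 17.8 and 106 CPM against 55.4 and 289 CPM, and Wif1 at 9.10 and 8.94 CPM against 38.2 and 50.5 CPM. Outside the pathway, Fn1 (fibronectin) was at 265 and 323 CPM against 740 and 1070 CPM, Postn at 453 and 698 CPM against 1450 and 1745 CPM, and Cav1 at 241 and 286 CPM against 792 and 713 CPM.

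Other genes did not separate the populations. Tnfaip6 was at 428 and 1490 CPM with high Ccn3, Itga8 at 225 and 398 CPM and Slc1a3 at 822 and 632 CPM, with log2 ratios between -0.22 and 0.27. Calb2 was past 2-fold above at P1, with a ratio of 1.90, and at 0.87 at P7, where the level with high Ccn3 was 194 CPM. The genes that the study's text gives for 2 of its own clusters were chosen on these libraries and are no independent evidence. Of the 8 such genes for the cluster with Aldh1a2 and Scara3 that the rule did not use, 7 were past 2-fold above the other cells in both libraries, and Postn was not. Of the 7 for the cluster with Ccn3 and Irx3, 2 were. The share above over all genes was 1.93%.

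**Figure D4:**
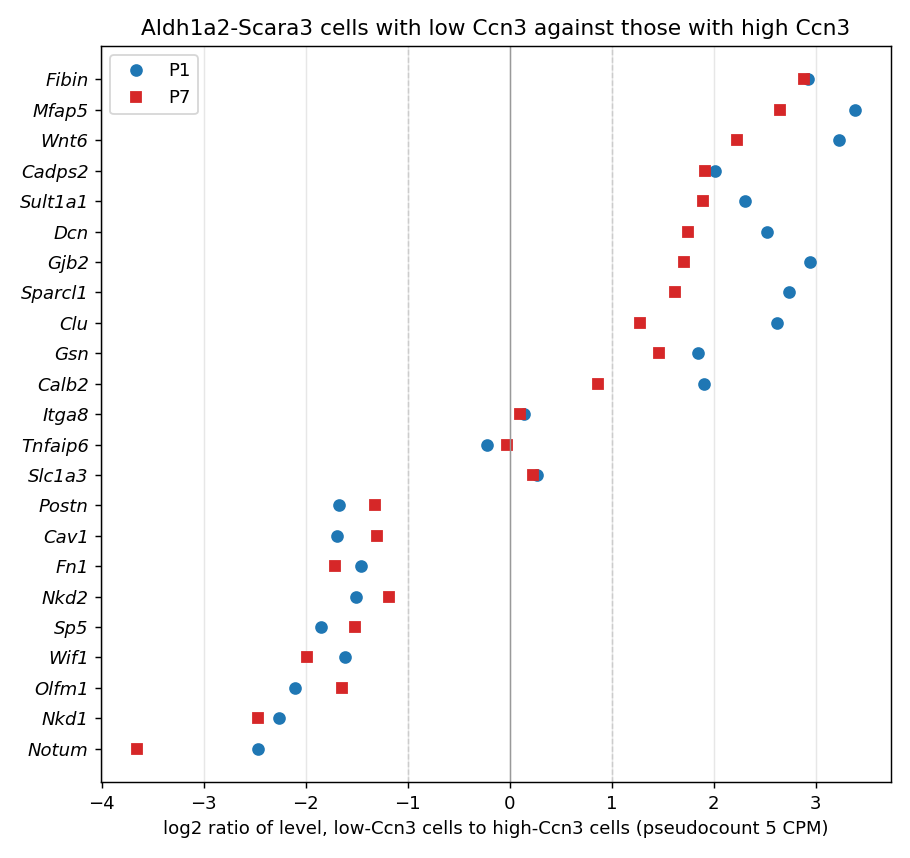
log2 ratio of the level in the selected cells to that in Aldh1a2-Scara3 cells with high Ccn3, with 5 CPM added to both levels, at P1 (blue) and P7 (red) for 23 genes. Dashed lines mark 2-fold. Fibin, Mfap5 and Wnt6 lie to the right of the lines in both libraries, Nkd1 and Notum to the left, and Itga8, Tnfaip6 and Slc1a3 near 0.

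Some of the selected barcodes carried RNA of other classes. Clustering the selected cells of each library on their variable genes (without the genes of the rule, haemoglobin, mitochondrial and ribosomal protein genes) set apart a subgroup with Col9a1 and Matn4, of 50 cells at P1 and 46 at P7. It had 1489 and 2740 CPM of Col9a1 against 127 and 221 CPM in all other selected cells, and 457 and 440 CPM of the matrix protein gene Matn4 against 17.1 and 25.3 CPM.

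The cells of this subgroup were deep, with medians of 12135 and 15062 UMIs against 7590.5 and 8588.0 in the rest. Scrublet, which scores each barcode against simulated sums of cell pairs, called 33 of 50 and 40 of 46 of them doublets. It called 15 of 438 (3.42%, interval 1.93 to 5.59) and 19 of 308 (6.17%, interval 3.75 to 9.47) of the remaining selected cells. Aldh1a2, which chose the cells, was at 552 and 538 CPM in the subgroup against 839 and 1028 CPM.

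**Figure D5:**
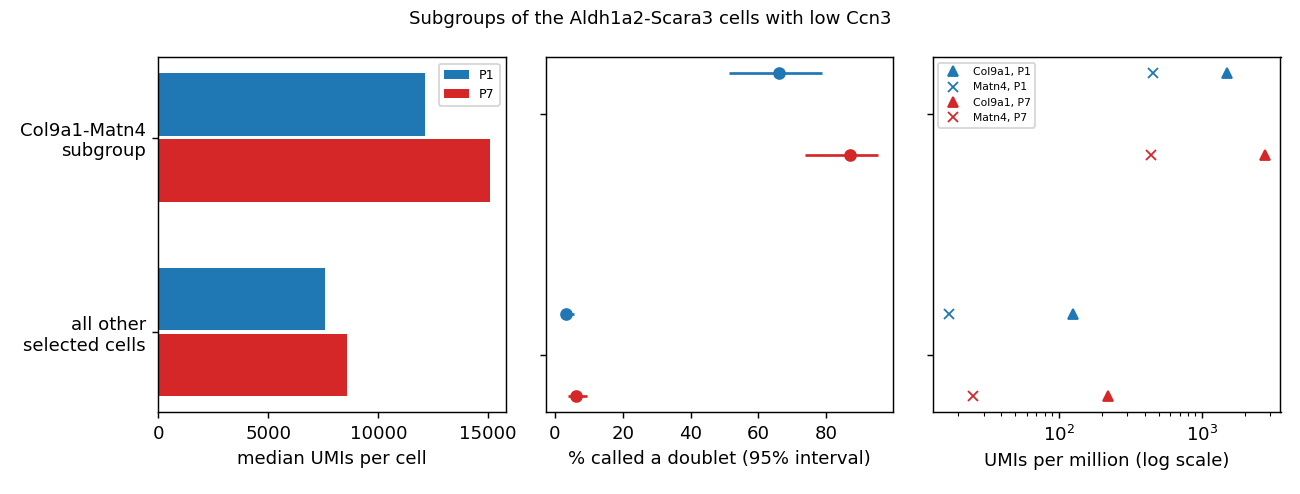
Median UMIs per cell, share of cells called doublets by Scrublet with its 95% interval, and levels of Col9a1 (triangles) and Matn4 (crosses, log scale) in the Col9a1-Matn4 subgroup and in all other selected cells at P1 (blue) and P7 (red). The subgroup reaches 12135 and 15062 median UMIs and 66.0% and 87.0% doublet calls, and the remaining cells stay at 3.42% and 6.17%.

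Without this subgroup, 110 genes were past 2-fold above the other cells in both libraries and 243 below, 350 were higher at P7 and 173 lower, and 41 were above and 35 below the cells with high Ccn3. The log2 ratio of P7 to P1 was 0.91 for Calb2, 1.98 for Tnfaip6, 2.32 for Osr1 and 1.10 for Cldn11. For Col1a1 it was -0.60 in place of -1.89.

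Defining genes of further classes were also measured over all selected cells. Summed over Lyz2, C1qa and Csf1r of macrophages the level was 17.3 CPM at P1 and 35.5 CPM at P7, with 12 and 35 cells holding any UMI. Plvap, Cdh5 and Kdr of endothelium summed to 27.9 and 48.2 CPM, while the whole endothelium list of 10 genes summed to 793 and 1576 CPM against 483 and 590 CPM in the other cells. Most of that sum was Emcn, which encodes the surface sialomucin endomucin, at 747 and 1506 CPM in the selected cells against 330 and 368 CPM, and of the 3 listed genes compared with the other cells it was above and the remaining pair below. The shares over all genes were 1.93% above and 4.19% below. Rgs5, Kcnj8 and Abcc9 of pericytes summed to 14.1 and 44.1 CPM, and Stmn2, Tubb3 and Snap25 of neurons to 38.6 and 30.6 CPM. No defining gene of these classes was at 0 in either library. Otor, the abundant product of fibrocytes, was at 7869 and 11290 CPM in the selected cells, at 18339 and 21128 CPM in the Otor-high cells, and at 1506 and 2329 CPM in the macrophages.

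Among the remaining 438 and 308 cells, some genes varied together in the same way in both libraries. The 168 P1 cells and 67 P7 cells with a UMI of Mme, the membrane protease neprilysin, were compared with the 270 and 241 without one, at median depths of 7860 against 7403.5 UMIs and 8677 against 8583. Tmigd1 was at 42.9 CPM against 1.29 CPM at P1 and at 25.9 CPM against 3.72 CPM at P7. Fn1 was at 413 against 140 CPM and 486 against 249 CPM, and the transcription factor gene Nr2f1 at 340 against 140 CPM and 308 against 142 CPM. Hspb1, a small heat shock protein, was lower with Mme, at 25.1 against 48.9 CPM and 98.8 against 215 CPM.

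Holding a UMI depends on depth, and the other splits also differed in median depth, in either direction. The cells with a UMI of Mfap5, 106 and 92 in number and with medians of 8620 and 8572.5 UMIs against 7411 and 8636.5 in those without, had more of Akr1c14 (33.2 against 2.46 CPM at P1 and 25.6 against 6.82 CPM at P7), Gsn (1189 against 597 CPM and 2134 against 965 CPM) and Dcn (581 against 229 CPM and 607 against 327 CPM). The 122 and 86 cells with a UMI of Lbp, at medians of 7861 and 7970.5 against 7474.5 and 8764.5 UMIs, had more of the chemokine gene Ccl19 (49.7 against 18.0 CPM and 120 against 36.0 CPM), Clec3b (308 against 150 CPM and 284 against 149 CPM) and Gsta1 (94.5 against 46.4 CPM and 262 against 140 CPM). The cells without a Calb2 UMI, 168 and 63 in number and at medians of 7141.5 and 7653 against 7845 and 8787 UMIs, had more Angptl4, a secreted inhibitor of lipoprotein lipase, at 32.9 CPM against 12.3 CPM and 162 CPM against 74.6 CPM. These companion genes were picked for being highest or lowest in both libraries, so their values are a description of how the cells vary.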

How the data were processed

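Droplet libraries (10x) of cochlear duct cells, 1 per age, were analysed. Per the labels and the file headers, the authors aligned reads to rn6 and counted UMIs with Cell Ranger 3.1.0. The deposited values are counts per gene and barcode, without normalization. The submitters' processing notes also name bcl2fastq and Seurat 3.1.1. Whether the authors removed doublets or free RNA is not given in the sources used here.

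Symbols with more than 1 gene identifier (such as Hba-a2) were summed. UMIs were summed over the cells of each group in each library and scaled to CPM. A pseudocount of 5 CPM was added in log2 ratios, and genes with at least 20 CPM were compared, without the genes of the rule. A fold of 2 (log2 of 1) stands in for a test, since there was 1 library per age and no replicate. Otor-high cells had Otor at 1% of UMIs or more and Gpc3-Dcn cells at least 5 UMIs of each, both without Aldh1a2. For detection, cells were thinned to 2000 UMIs. Scrublet (scanpy 1.11.5) calls were kept in the values reported and removed in an alternative. Subgroups came from Leiden clustering (resolution 0.5, 1000 variable genes, 10 principal components, 15 neighbours). Scripts (Python 3.11.15, matplotlib 3.10.9 for plots, pandas 2.3.3 for tables, scipy 1.17.1 for intervals, numpy 2.4.6) were tested on simulated data.

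Genes named were the 6 markers, genes the study gives for its clusters, up to 6 per list, the 25 highest and 10 lowest ratios to the other cells, the 20 largest ratios of P7 to P1 each way among genes of at least 50 CPM, the 15 largest differences each way from the high-Ccn3 cells, and genes leading subgroups. Genes named for a ratio of P7 to P1 unlike that of the other cells were chosen after their values were seen, as were the genes of the promoters shown. The cells and lists were chosen with earlier results of these data known. Some genes, and a further subgroup of the selected cells, are not reported here.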

Additional observations from a re-analysis of the deposited data

Results flagged for a closer look

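Several genes moved in opposite directions between P1 and P7 in the selected cells and in all other non-dividing cells, each beyond its counting interval. The differences between these movements were not tested, since each age had 1 library, and the makeup of the other cells differed between the libraries. Each value is the log2 ratio of P7 to P1 in the selected cells minus that in the other cells, with 5 CPM added to each level.

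The difference was 2.34 for Atp1b1, 1.90 for Mab21l1, 1.51 for Cav1, 1.47 for Nkd2 and 1.31 for Osr2. It was 1.29 for Pik3r1, Bicdl1 and Jun, 1.27 for Cldn11, 1.21 for Robo2 and Itga8, 1.19 for Tnc, 1.18 for Runx1t1 and 1.16 for Calb2 and Ccl19. In all of these the selected cells were higher at P7 and the other cells lower. Tubb6, a beta-tubulin, gave -1.16, with the selected cells lower at P7 and the other cells higher. The cells with high Ccn3 are part of the other cells. After thinning, 6.87% of them held a Calb2 UMI at P1 and 28.3% at P7. The shares were 12.9% and 29.0% for Osr2, 36.3% and 54.3% for Itga8, and 26.6% and 33.3% for Cldn11. The Cldn11 intervals overlapped. Whether the movements were particular to the selected cells was not tested.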

How the results depend on the processing

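The share of selected cells followed the rule. At P1 and P7 it was 4.98% and 4.38% with a mitochondrial limit of 10%, 5.44% and 3.79% with 2 Aldh1a2 UMIs, 2.90% and 2.47% with 5, 2.85% and 2.65% with 2 Scara3 UMIs, and 5.80% at P1 with no Scara3 UMI asked for. It was 3.52% and 2.50% with Ccn3 below 0.2%, 6.06% and 3.87% below 0.8%, 5.49% and 4.27% with cells holding RNA of other types removed, and 2.86% at P7 without Scrublet calls. Chosen after seeing the data, leaving out the Col9a1-Matn4 subgroup gave 3.93% and 2.83%. The rule applied to cells thinned to 2000 UMIs left 0.466% and 0.40%, with 36.6% of P7 cells holding Calb2 and with 718 genes higher and 423 lower at P7 on few cells. The share was lower at P7 under each of these settings, but the gap varied with the rule. It was narrow with 2 Scara3 UMIs (319 cells at P1 and 289 at P7) and with the thinned rule (51 and 41 cells). No counting intervals are given for these settings, so a fall beyond counting error under each of them is not claimed.

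With Ccn3 below 0.2%, 26 genes were above and 17 below the high-Ccn3 cells. A minimum of 1 CPM gave 347 genes below the other cells. A minimum of 50 CPM gave 170 higher and 84 lower at P7, 102 below the other cells, and 26 above and 16 below the high-Ccn3 cells, with fewer genes compared by construction. Scaling without mitochondrial and ribosomal protein genes gave 275 lower at P7.

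Of 3474 values of named genes over 18 settings, 1966 were labelled within counting error, 1504 beyond it and 4 as changed in sign. The values had a pseudocount added to each level and the counting intervals did not. Neither the 1966 nor the 1504 is therefore a count of shifts within or beyond counting error. Unchanged values were also among the 1504 labelled beyond it. With at least 2 Aldh1a2 UMIs, Calb2 against the other cells at P7 was so labelled at 4.23, its value under the main rule. The same held for Clec1a at 3.45. The 4 values were Cnmd against the high-Ccn3 cells at P1 (-0.01, Ccn3 below 0.2%), Col1a1 between ages (2.30) and Maob against the high-Ccn3 cells at P7 (0.65), both with the thinned rule, and Lyz2 against the other cells at P1 (0.13, other types' RNA removed). Lyz2 is among the genes by which the setting without other types' RNA removed cells. The thinned rule left 51 cells at P1 and 41 at P7. Further causes were not tested. No paired analysis was possible because each age had 1 library.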
